A study of Mus musculus with 12 samples.

Results

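Polycomb proteins repress genes through a pair of chromatin complexes, and the RNAs of their core subunits were followed in mouse zygotes. The 10 genes were Ezh1, Ezh2, Eed and Suz12 of Polycomb repressive complex 2 (PRC2), and Ring1, Rnf2, Cbx2, Bmi1, Pcgf1 and Pcgf6 of Polycomb repressive complex 1 (PRC1), out of 24999 genes and repeats in the quantification. They were chosen by name, and the RefSeq transcripts of each gene were added up by symbol in all 12 libraries. All 10 genes were found, 9 with counts in every library. The exception was Ring1, which had 0 counts in the 4 RNA-seq libraries and 0 to 15 in the others.

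PRC2 places methyl groups on lysine 27 of histone H3. EZH1 or EZH2 is the catalytic subunit, EED reads the existing mark and SUZ12 holds the complex together. PRC1 adds ubiquitin to histone H2A through RING1 or RNF2 (RING1B), which pairs with a PCGF protein. A complex with a CBX protein, which reads the PRC2 mark, is called canonical PRC1, and a complex with RYBP or YAF2 in its place is called variant PRC1. In the mouse zygote, maternally supplied PRC1 with CBX2 is known to bind the pericentric heterochromatin of the paternal pronucleus, where H3K9me3 is low, while H3K9me3 marks that of the maternal pronucleus.

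The libraries came from zygotes of superovulated B6D2F1 females, aged 8 to 10 weeks by the labels and 6 to 8 weeks by the study's methods. The females are described as mated, whereas the study's scheme for the knockdown shows fertilization in vitro. The labels place collection at 18 to 20 h after human chorionic gonadotropin (hCG). Total RNA-seq compared Lsm1_KD zygotes, which received siRNA against Lsm1, with Ctrl zygotes, which received scramble siRNA. LSM1 belongs to the LSM ring of the cytoplasm, which holds on to mRNAs that have lost their poly(A) tail and promotes their decapping. The labels describe injection at the zygote stage, whereas the scheme of the study shows injection into germinal vesicle oocytes, and the stage used for these libraries cannot be told apart from the sources. RNA immunoprecipitation (RIP-seq) with an anti-FLAG gel was made on zygotes that received mRNA encoding LSM1 with a 3XFlag tag (FLAG) and on zygotes whose treatment label names untagged Lsm1 mRNA (Ctrl), each with libraries from the immunoprecipitate (IP) and from the lysate (Input). The titles of the Ctrl libraries say IgG while their antibody label names the same anti-FLAG gel, so which control the Ctrl IP is cannot be told apart from the sources. There were 2 libraries in each of the 6 groups. The RNA-seq libraries were pools of a few embryos, and no label says that the replicates came from separate mice, so p-values measure the spread between these libraries, which may be technical. Because zygotes were pooled, a difference in all of them and a difference in some of them cannot be told apart.

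Between 4636492 and 13968315 reads were assigned per RNA-seq library and between 9865512 and 31586450 per RIP-seq library. Repeats took 12.7% of FLAG IP replicate 1 and at most 2.63% of each of the other 11 libraries, so results that rest on this IP library are given with and without it. The 8 markers of oocytes and zygotes were detected in every library, with a summed level of 10667 and 9284 TPM in Lsm1_KD and 13462 and 13708 TPM in Ctrl. Of 8 cumulus and granulosa markers, 2 to 3 had counts in the RNA-seq libraries, and their summed level of 10.6 to 16.2 TPM overlapped between groups. Of 6 sperm markers only Prm2 had counts there, at 27.0 and 38.4 TPM in Lsm1_KD and 10.8 and 9.56 TPM in Ctrl. The part of this difference in the results was not tested.

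The siRNA is shown because it defines the Lsm1_KD group. Its sense strand matched the spliced Lsm1 transcript across the junction of exons 2 and 3 of 4, in the coding sequence on chromosome 8 of GRCm38.p6 (chr8:25792216-25792225 and chr8:25793677-25793685, plus strand), with the exon 3 bases in capitals.
Lsm1 siRNA: gatcaatttgCTAACTTAG
Lsm1 itself was at 63.7 and 71.0 CPM (normalized read counts, scaled to the size of each library) in the Lsm1_KD libraries and 143 and 147 CPM in Ctrl, a log2 fold change of -1.10 (SE 0.22, edgeR adjusted p = 0.011). In the RIP-seq, Lsm1 was at 10837 and 16750 CPM in the FLAG Input libraries against 18.3 and 18.4 CPM in the Ctrl Input libraries, so the libraries labelled as untagged Lsm1 mRNA held no excess of Lsm1 RNA.

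**Figure D1:**
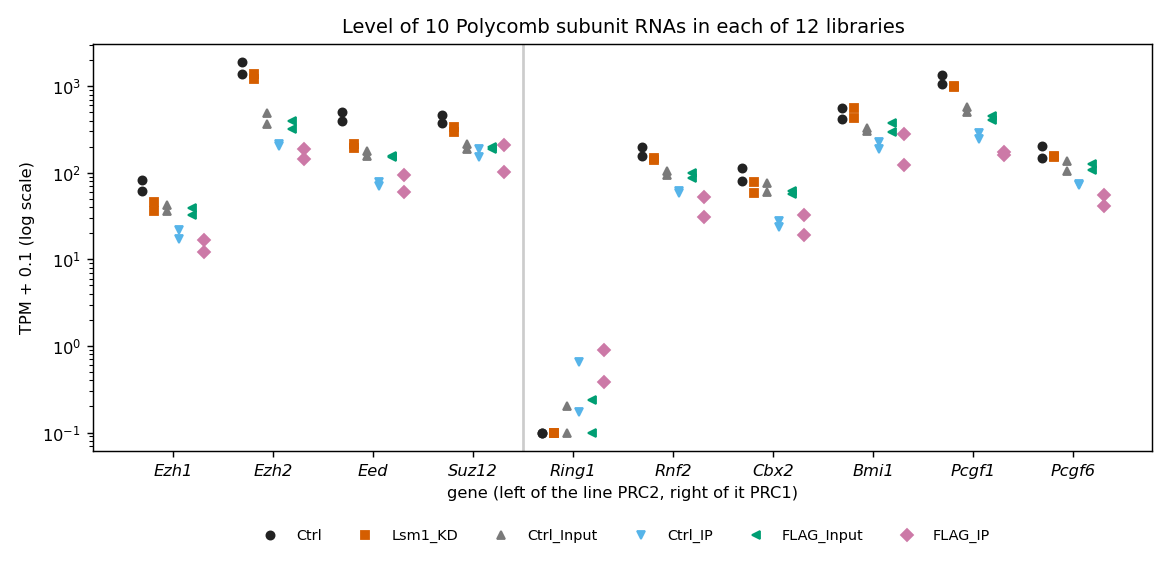
Level of each of the 10 subunit RNAs on a logarithmic axis, as TPM with 0.1 added, with 1 point per library and a colour and shape per group. Ezh2 and Pcgf1 stood highest in all RNA-seq libraries, Ezh1 lowest of the detected genes, and Ring1 at or near 0 throughout.

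In Ctrl zygotes, RNA for the enzyme Ezh2 was the most abundant of the 10 per unit of transcript length, and RNA for its paralog Ezh1 the least abundant of the 9 detected. Levels between genes are given in TPM, the share of all transcripts after division by transcript length. Ezh2 (chromosome 6, 47530274 to 47595270) was at 1399 and 1879 TPM in the Ctrl libraries. Ezh1 (chromosome 11, 101191115 to 101226463) was at 62.0 and 83.0 TPM, so that Ezh2 was 22.6-fold higher than Ezh1 in each Ctrl library. The H3K27me reader gene Eed (chromosome 7, 89954654 to 89980976) was at 508 and 398 TPM, and the scaffold gene Suz12 (chromosome 11, 79993106 to 80034123) at 461 and 376 TPM. Eed and Suz12 overlapped, while both lay below Ezh2 in each library. A lncRNA gene, F830010H11Rik, overlaps the Ezh2 locus in the annotation, so reads from shared stretches are uncertain.

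Of the PRC1 genes, Pcgf1 led at 1360 and 1048 TPM in Ctrl. It encodes the PCGF subunit of the variant complex with KDM2B and lies on chromosome 6 (83077552 to 83080855), with a transcript of 874 nt, the shortest of the 10. Bmi1 (chromosome 2, 18677018 to 18686629), a PCGF gene of canonical PRC1, was at 413 and 567 TPM. Pcgf6 (chromosome 19, 47033617 to 47050939), whose product joins the variant complex with MGA and E2F6, was at 205 and 147 TPM. The ubiquitin ligase gene Rnf2 (chromosome 1, 151469398 to 151500991) was at 196 and 156 TPM, and the chromobox gene Cbx2 (chromosome 11, 119023019 to 119031275) at 80.0 and 113 TPM. In the order of Ctrl means, the neighbours Bmi1 and Eed, Eed and Suz12, Pcgf6 and Rnf2, and Cbx2 and Ezh1 overlapped in their libraries, and the other neighbours did not.

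Several subunits have paralogs, and some of these were at or near 0 counts. Ring1 (chromosome 17, 34020792 to 34024680), the second ligase gene of PRC1, had 0 counts in each RNA-seq library, which allows at most 0.215 to 0.647 CPM by a floor of 3 counts per library. Rnf2 had 1004 to 3578 counts in the same libraries. Besides Ring1, 7 of 46 other Polycomb genes fell below the abundance filter in the RNA-seq, and all had 0 to 4 counts per library except Sfmbt2, with up to 25. They included the chromobox genes Cbx6 and Cbx8 and the Bmi1 paralog Pcgf2, with 0 to 4 counts, against 662 to 1835 counts for Cbx2 and 4468 to 9047 for Bmi1. Epop, a PRC2 accessory gene, and E2f6 were among them too. Floors cover counting error only.

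The order differed between the RNA-seq and the RIP-seq inputs. In the Ctrl Input libraries Pcgf1 was highest, at 500 and 575 TPM, followed by Ezh2 at 363 and 492 TPM and Bmi1 at 300 and 328 TPM. Ezh2 was 10.1- and 11.7-fold higher than Ezh1 there. The sources conflict on the RNA-seq kit, and library preparation and injected RNA cannot be told apart in this difference. FLAG Input and Ctrl Input had the same order of means from Pcgf1 down to Ring1. Between FLAG Input and Ctrl Input, the 9 subunit RNAs other than Ring1 had log2 fold changes of -0.25 to 0.15, and edgeR, DESeq2 and limma called 0 of 10, with 0 of 10 also at an unadjusted p under 0.05 in each. Of all 18925 features tested, edgeR called 0.0% in either direction, and its unadjusted p was under 0.05 for 0.888% on the higher side and 0.0423% on the lower. DESeq2 and limma on log2(TPM + 1) called 1 each. By edgeR, Lsm1 itself was not called, at a log2 fold change of 9.55 (SE 2.73, edgeR unadjusted p = 0.0044). A test that missed this difference cannot show that the subunit RNAs were unchanged.

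The first question was whether subunit RNAs differed after Lsm1 knockdown. Eed fell, and no other core subunit RNA passed the test. Eed had 211 and 199 CPM in the Lsm1_KD libraries and 412 and 338 CPM in Ctrl. Both knockdown libraries lay below both controls, with means of 205 ± 8.56 (SD, n = 2) and 375 ± 51.8 CPM (SD, n = 2). The log2 fold change was -0.87 (SE 0.20, edgeR adjusted p = 0.021), a 1.83-fold lower level. So 1 of 9 tested subunit genes was lower and 0 were higher at an adjusted p under 0.05, against 4.73% lower and 6.59% higher of the 11313 features tested. The median log2 fold change was -0.04 for the 9 genes and 0.01 for all features. Read against those shares, a single call among 9 genes did not set the subunits apart from all features.

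The Eed call rested on 2 libraries. Without Lsm1_KD replicate 2 the log2 fold change was -0.83 (edgeR adjusted p = 0.099), and without Ctrl replicate 1 it was -0.73 (adjusted p = 0.074). Over 14 alternatives the value ranged from -1.15 to -0.73, and 11 kept the call. The third loss was on single transcripts (-0.90, edgeR adjusted p = 0.12).

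**Figure D2:**
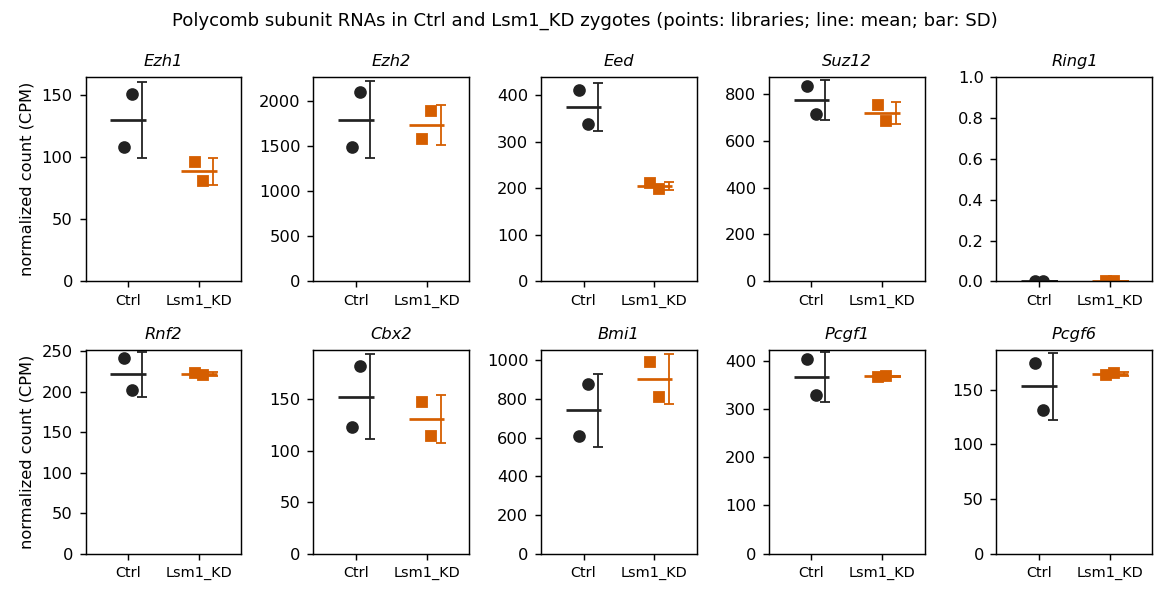
Normalized counts in CPM of the 10 subunit RNAs in the Ctrl and Lsm1_KD libraries, with points for libraries, a line for the mean and a bar for the SD of 2 libraries. Eed and Ezh1 are the genes whose groups do not overlap, and Ring1 is at 0.

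The other PRC2 RNAs had smaller differences. Ezh1 was at 96.4 and 80.7 CPM in Lsm1_KD and 108 and 151 CPM in Ctrl. The groups did not overlap, but the log2 fold change of -0.55 (SE 0.24) missed the threshold (edgeR adjusted p = 0.17, unadjusted p = 0.045). Non-overlapping groups with the knockdown lower were found for 2 of 9 subunit genes, Ezh1 and Eed, and for 28.6% of all features tested. With the knockdown higher there were 0 of 9, against 29.2%. Ezh2 was at 1584 and 1898 CPM in Lsm1_KD and 1493 and 2099 CPM in Ctrl, so the Ctrl libraries enclosed both knockdown libraries. Its log2 fold change was -0.04 (SE 0.22, edgeR adjusted p = 0.92). Suz12 was at 750 and 683 CPM against 835 and 712 CPM, with a log2 fold change of -0.11 (SE 0.19, edgeR adjusted p = 0.76).

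Within each library, the balance of the PRC2 RNAs differed between groups, a comparison that does not depend on scaling between libraries. Suz12 over Eed in TPM was 1.59 and 1.53 in Lsm1_KD and 0.908 and 0.945 in Ctrl. Ezh2 over Eed was 5.70 and 7.24 in Lsm1_KD and 2.76 and 4.72 in Ctrl. Neither ratio overlapped between groups. Both were chosen after Eed was called and are given with no test. The same held for the other subunit ratios computed in all libraries, Ezh2 over Ezh1 (26.8 and 38.4 in Lsm1_KD, 22.6 in each Ctrl library) and Pcgf1 over Pcgf6 (6.43 and 6.41 against 6.64 and 7.15), so the separation was not particular to Eed. The RIP-seq inputs had Suz12 over Eed of 1.20 to 1.27.

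No PRC1 subunit RNA was called in the knockdown. Bmi1 had 995 and 812 CPM in Lsm1_KD and 609 and 876 CPM in Ctrl, with a log2 fold change of 0.28 (SE 0.22, edgeR adjusted p = 0.45). Cbx2 had 147 and 114 CPM against 124 and 182 CPM (log2 fold change -0.22, SE 0.25). Rnf2 had 224 and 220 CPM against 241 and 202 CPM, and Pcgf6 had 163 and 166 CPM against 175 and 131 CPM. In each of these genes the groups overlapped.

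Pcgf1 had 366 and 368 CPM in Lsm1_KD and 403 and 330 CPM in Ctrl, a log2 fold change of 0.00 (SE 0.19). With a correction for transcript length as a trend it was -0.67 (edgeR adjusted p = 0.047), which made 2 subunit RNAs lower. On the TPM scale, where the median of all features moved from 0.01 to -0.23, Rnf2, Pcgf1 and Pcgf6 had log2 fold changes below 0 and Eed was at -1.15 (limma adjusted p = 0.018).

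The isoform shares of Ezh2 also differed between the knockdown and Ctrl libraries. RefSeq holds 2 Ezh2 transcripts of 20 exons that differ at a pair of splice donor sites, both in the coding sequence of the minus strand. The longer exon 3 ends 27 bases further (chr6:47576536-47576562), and the longer exon 8 ends 15 bases further (chr6:47551717-47551731). The sequences are printed because these bases alone separate the isoforms; capitals mark the bases present in the isoform named, lower case the neighbouring genome.
Ezh2, isoform with long exon 3: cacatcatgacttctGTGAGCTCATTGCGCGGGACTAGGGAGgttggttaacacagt
Ezh2, isoform with long exon 8: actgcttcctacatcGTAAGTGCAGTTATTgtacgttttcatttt
The isoform with the long exon 8 and the short exon 3 made up 28.7% and 29.2% of Ezh2 counts in the knockdown libraries and 19.4% and 19.1% in the Ctrl libraries. The groups lay far apart relative to their replicates. In the 4 input libraries the share was 18.5% to 19.7%, and it was 17.6% and 19.5% in the FLAG IP and 11.8% and 20.1% in the Ctrl IP. The difference was noticed in the data and is given with no test. It was not rare: of 193 genes with 2 transcripts and at least 1000 counts in each RNA-seq library, 31.1% had groups that did not overlap and means more than 5 percentage points apart. The shares come from the assignment of reads between near-identical transcripts, whose error was not tested.

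Suz12 also has 2 RefSeq transcripts, and the shorter lacks exon 4 of 16, a coding exon of 69 bases (chr11:79999057-79999125, plus strand). That exon is shown in capitals with the neighbouring genome in lower case.
Suz12 exon 4: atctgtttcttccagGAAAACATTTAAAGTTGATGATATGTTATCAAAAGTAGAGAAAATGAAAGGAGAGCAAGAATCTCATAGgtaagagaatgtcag
The transcript without this exon made up 5.63% and 3.13% of Suz12 counts in the knockdown libraries and 12.1% and 7.76% in the Ctrl libraries. The groups did not overlap, but the Ctrl libraries differed from each other by more than the closest libraries of the groups did. The inputs were at 2.77% to 4.20%.

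**Figure D3:**
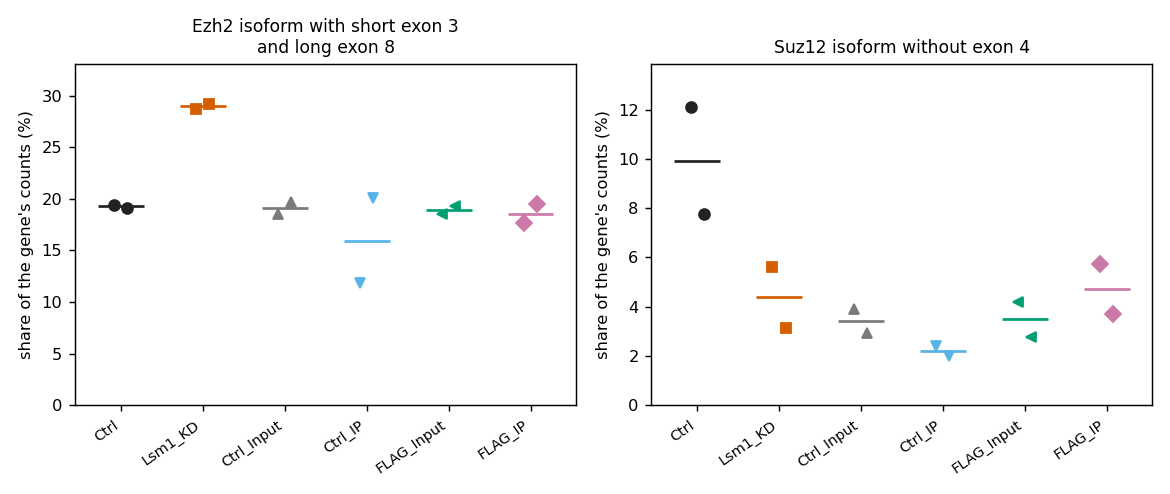
Share of a gene's estimated counts taken by the Ezh2 isoform with the short exon 3 and long exon 8, and by the Suz12 isoform without exon 4, with points for libraries and a line for the group mean. The Ezh2 share was 28.7% and 29.2% in Lsm1_KD and at most 20.1% in the other 10 libraries.

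Around the core, other Polycomb genes moved both ways in the knockdown. Of 46 such genes in the quantification, 39 were tested, 3 were higher (Rbbp4, Rybp and Kdm6b) and 4 lower (Mtf2, Bap1, Fbrsl1 and Usp7) at an adjusted p under 0.05 from edgeR, against 6.59% and 4.73% of all features. Their median log2 fold change was -0.10.

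Among 10 tested PRC2 accessory genes, 1 rose and 1 fell, with a median of -0.16. Rbbp4, which encodes a histone-binding protein shared by PRC2 with other chromatin complexes (chromosome 4, 129307100 to 129335370), had 124 and 119 CPM in Lsm1_KD and 20.0 and 20.4 CPM in Ctrl. The libraries of each group were close together, and the log2 fold change was 2.59 (SE 0.24, edgeR adjusted p = 0.00095), the largest among the 48 Polycomb genes tested. In the Ctrl Input libraries of the RIP-seq, which were scaled apart from the RNA-seq, Rbbp4 had 119 and 106 CPM. CPM of these assays are not comparable. Mtf2, a Polycomb-like protein gene whose product recruits PRC2 (chromosome 5, 108065660 to 108109219), had 104 and 81.5 CPM against 187 and 181 CPM, a log2 fold change of -0.99 (SE 0.22, edgeR adjusted p = 0.019). Without Lsm1_KD replicate 2 the call was lost (-0.83, adjusted p = 0.12).

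Canonical PRC1 had 7 tested genes besides the core, with 0 called by edgeR, 0 at its unadjusted p under 0.05 among those that were higher and 1 among those that were lower, against 14.3% and 13.0% of all features. Their log2 fold changes ran from -0.46 to 0.19.

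Of 14 tested variant PRC1 genes, 1 rose and 2 fell. Rybp, whose product replaces the CBX subunit (chromosome 6, 100228565 to 100287358), had 192 and 237 CPM in Lsm1_KD and 84.1 and 73.7 CPM in Ctrl, a log2 fold change of 1.44 (SE 0.22, edgeR adjusted p = 0.0036). The groups lay well apart, and the call held in 13 of 14 alternatives, with the loss on single transcripts, where edgeR called 0 features of any kind. The annotation places a pseudogene, Gm18422, over the Rybp locus, so shared reads are uncertain. Fbrsl1, a relative of the variant PRC1 gene Auts2, had 119 and 133 CPM against 234 and 227 CPM, a log2 fold change of -0.87 (SE 0.20, edgeR adjusted p = 0.022). Leaving out Lsm1_KD replicate 1 or 2 raised its adjusted p to 0.063 or 0.065. Usp7, a deubiquitinase gene, had 436 and 398 CPM against 636 and 705 CPM, a log2 fold change of -0.69 (SE 0.19, edgeR adjusted p = 0.039). Its call was lost in 6 of 14 alternatives, among them without Lsm1_KD replicate 1 (adjusted p = 0.054), without replicate 2 (0.19) and without Ctrl replicate 2 (0.11).

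Of 8 genes for enzymes that oppose Polycomb marks and their cofactors, 1 was higher and 1 lower, against 6.59% and 4.73% of all features. Bap1, the catalytic gene of the complex that removes ubiquitin from H2A (chromosome 14, 31251352 to 31259930), had 80.4 and 58.9 CPM in Lsm1_KD and 137 and 152 CPM in Ctrl, a log2 fold change of -1.06 (SE 0.24, edgeR adjusted p = 0.020). Kdm6b, an H3K27 demethylase gene, had 305 and 316 CPM against 181 and 168 CPM, a log2 fold change of 0.83 (SE 0.19, edgeR adjusted p = 0.022). In both genes the groups did not overlap. Without Lsm1_KD replicate 2, the call was lost for Bap1 (-0.85, adjusted p = 0.12) and Kdm6b (0.80, adjusted p = 0.095), and 0 of the 4 lower genes were called. Kdm6b also lost its call without Ctrl replicate 2 (0.76, adjusted p = 0.087), and it was called in 8 of 14 alternatives, with values down to 0.54.

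**Figure D4:**
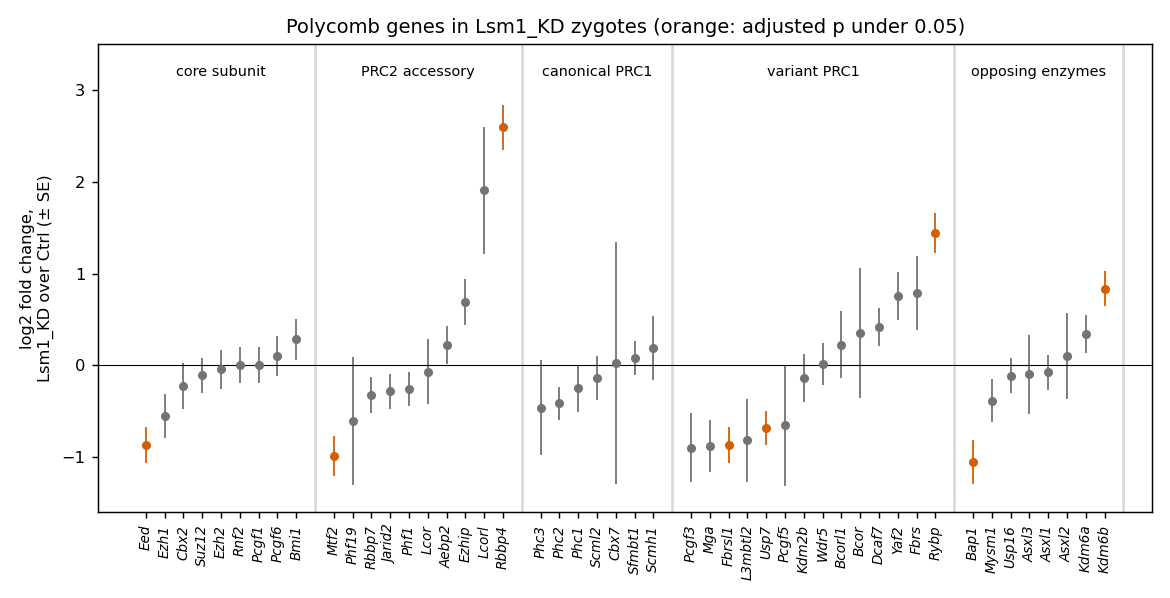
Log2 fold change of Lsm1_KD over Ctrl, with SE bars from the edgeR fit, of the 9 core subunit genes and 39 other Polycomb genes tested, grouped by role. Orange marks an adjusted p under 0.05: Eed among the core genes, and Rbbp4, Rybp, Kdm6b, Mtf2, Bap1, Fbrsl1 and Usp7 among the others.

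The RIP-seq asked which RNAs came down with tagged LSM1. No core subunit RNA passed the test in the FLAG IP over its input, and the 9 other than Ring1 had log2 ratios from -1.28 (Pcgf6) to -0.00 (Suz12). Of these 9, edgeR called 0 higher and 0 lower, against 21.3% higher and 5.59% lower of 18925 features. At an unadjusted p under 0.05, edgeR had 3 lower (Eed, Pcgf1 and Pcgf6) and 0 higher, against 14.1% and 32.7% of all features, and by adjusted p DESeq2 called 3 and limma on log2(TPM + 1) called 7 lower. In either direction DESeq2 called 7640 and limma 2845 of the 18925 features. The median log2 ratio was -0.94 for the 9 genes and 0.49 for all features. For the 46 other Polycomb genes it was -0.55. By role, this was -0.42 for PRC2 accessory, 0.83 for canonical PRC1, -0.77 for variant PRC1 and -0.80 for genes opposing Polycomb marks. A low median was thus not particular to the core subunits. Ring1 had 14 and 9 counts in the FLAG IP and 0 and 6 in its input, too few for a ratio. It passed the abundance filter through the IP libraries, which fixes its direction, so it is left out of these counts. Both FLAG IP libraries lay below both inputs for 6 of the 9 genes (Ezh1, Eed, Rnf2, Cbx2, Pcgf1 and Pcgf6), against 30.3% of all features. They lay above both inputs for 0 of 9, against 42.1%.

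The study's methods take each input from the lysate of its pull-down. With a replicate block for the lysate, the log2 ratio of Ezh1 was -1.41 (edgeR adjusted p = 0.032), the 1 core gene called, in a fit that called 6103 features. For the Ctrl IP the block called 1463 features and 0 core genes.

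The 2 FLAG IP libraries differed. Over the input of the same number, replicate 1 had log2 ratios of -2.40 to -1.40 for the 9 genes, with a median of -2.00. Replicate 2 had -0.86 to 0.69, with a median of -0.44. The medians of all features were 0.46 and 0.11. In replicate 1 other Polycomb RNAs lay on both sides, such as Kdm6b (-2.86) and Bap1 (-2.01) against Mtf2 (0.56) and Pcgf5 (1.79). Suz12 shows the split: it was at 219 and 1243 CPM in the FLAG IP and 692 and 772 CPM in the FLAG Input. Bmi1 was at 214 and 1346 CPM against 1072 and 979 CPM. In both genes the IP libraries lay on either side of the inputs. Ezh2 was at 184 and 662 CPM in the FLAG IP and 653 and 950 CPM in the FLAG Input, Rnf2 at 45.7 and 210.1 CPM against 238 and 239.5 CPM, and Cbx2 at 34.6 and 163 CPM against 167 and 212 CPM. In each, FLAG IP replicate 1 was the lowest of the 8 RIP-seq libraries, and replicate 2 lay near the lower input.

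Without FLAG IP replicate 1, the log2 ratios of Eed (-0.75), Pcgf1 (-0.69) and Pcgf6 (-0.89) were below 0. Those of Suz12 (0.73) and Bmi1 (0.36) were above 0, and the median of all features was 0.10. Without FLAG IP replicate 2 all 9 were below 0, while the median of all features was 1.09. Eed, Pcgf1 and Pcgf6 lay below both inputs in each FLAG IP library. Eed was at 91.4 and 157 CPM in the FLAG IP and 242 and 273 CPM in its input. Pcgf1 was at 57.1 and 167 CPM against 228 and 298 CPM. Pcgf6 was at 55.9 and 114 CPM against 206 and 207 CPM, with a log2 ratio of -1.28 (SE 0.47, edgeR adjusted p = 0.057).

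The control pull-down gave ratios of the same sign for most of these RNAs. In Ctrl IP over Ctrl Input, 8 of the 9 genes had a log2 ratio below 0. Their median was -0.43, against -0.16 for the 46 other Polycomb genes and 0.12 for all features. By edgeR and DESeq2, 0 of these 9 were called and 0 had an unadjusted p under 0.05. By limma on log2(TPM + 1), 7 were at that level and 0 were called, with 3924 of the 18925 features at that level. Of all features, 2.18% were called higher and 0.00528% lower by edgeR, with 16.4% and 0.697% at an unadjusted p under 0.05. Both Ctrl IP libraries lay below both inputs for 7 genes and above them for Suz12, against 27.2% and 33.4% of all features. Eed was at 185 and 167 CPM in the Ctrl IP and 275 and 267 CPM in its input, and Suz12, the exception, at 809 and 1007 CPM against 748 and 723 CPM.

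Set against the control, no subunit RNA passed the test of a difference between the pull-downs. The FLAG ratio over the Ctrl ratio was below 0 for all 9 genes, from -1.10 (Pcgf6, SE 0.65) to -0.11 (Cbx2, SE 0.84). Their median was -0.45, against -0.34 for the 46 other Polycomb genes and 0.02 for all features. With these errors, edgeR called 0 of 10 and 0.0% of all features in either direction, and 0 of 10 reached an unadjusted p under 0.05 by edgeR, DESeq2 or limma. Over all features edgeR had 4.0% higher and 1.27% lower at that level, and DESeq2 called 2. Without FLAG IP replicate 1, the values of Ezh1, Ezh2, Suz12, Rnf2, Cbx2 and Bmi1 were above 0, up to 0.62. Cbx2 was also above 0 without Ctrl IP replicate 2 (0.008) and without FLAG Input replicate 2 (0.023). Eed, Pcgf1 and Pcgf6 stayed below 0 with any 1 library left out. Without FLAG IP replicate 2 all 9 were called lower, in a fit that called 6397 of 20736 features.

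**Figure D5:**
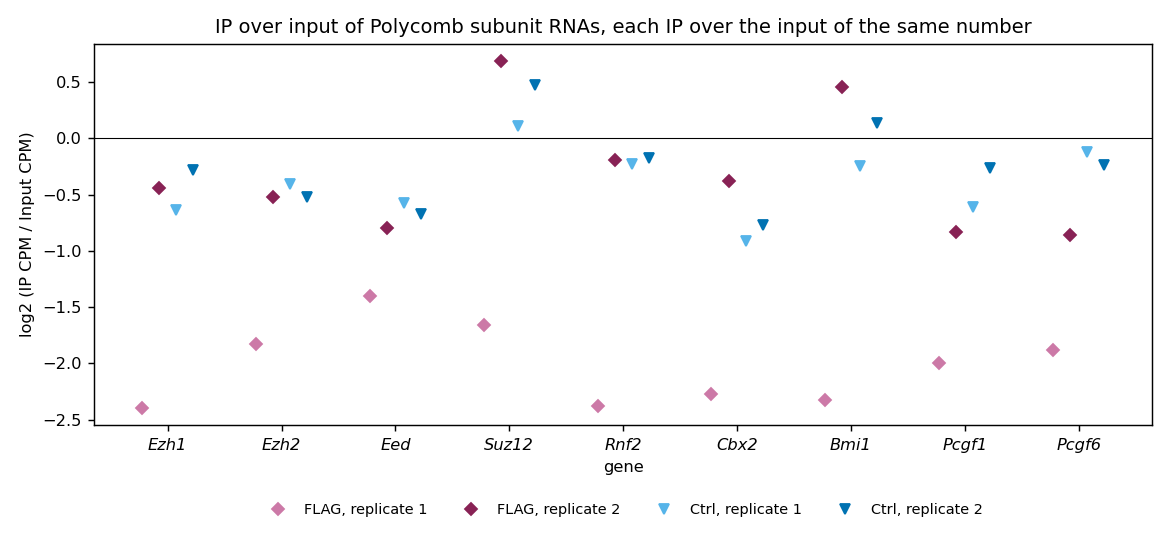
Log2 of IP CPM over Input CPM for the 9 subunit RNAs other than Ring1, each IP over the input of the same replicate number, with diamonds for FLAG and triangles for Ctrl. FLAG replicate 1 lies at -1.40 or below for every gene, and the other 3 pairs lie between -0.91 and 0.69.

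In the FLAG IP over its input, edgeR called 21.3% of all features higher and 5.59% lower. Among the other Polycomb genes, it called Pcgf5 higher and Pcgf3 lower. Cbx6 was called higher too, but it passed the abundance filter through the IP libraries, which fixes its direction, so its counts alone are given. Cbx6, which encodes a chromobox protein of canonical PRC1, had 186 and 33.1 estimated counts in the FLAG IP and 0.0 and 9.0 in its input. In the Ctrl libraries Cbx6 had 5.19 and 25.7 counts in the IP and 3.54 and 3.0 in the input.

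Pcgf5 and Pcgf3, PCGF genes of variant PRC1, went in opposite directions. Pcgf5 was at 14.2 and 12.2 CPM in the FLAG IP and 4.12 and 5.21 CPM in its input (log2 ratio 1.50, SE 0.45, edgeR adjusted p = 0.032). Pcgf3 was at 27.3 and 42.0 CPM against 82.5 and 81.4 CPM (log2 ratio -1.24, SE 0.35, edgeR adjusted p = 0.026). Without FLAG Input replicate 1 or 2 both calls were lost, with adjusted p of 0.23 and 0.16 for Pcgf5 and 0.15 and 0.12 for Pcgf3. In the Ctrl libraries Pcgf5 was at 5.14 and 5.17 CPM in the IP and 4.43 and 5.12 CPM in the input, so the IP and input of the control nearly coincided. With the replicate block for the lysate, 3 of the 46 genes were called lower in the FLAG IP. That fit called 6103 of 18925 features in either direction. In the Ctrl IP, 0 of the 46 genes were called by edgeR, DESeq2 or limma on log2(TPM + 1). These fits called 414, 1341 and 156 of the 18925 features. In edgeR, 1 of the 46 had an unadjusted p under 0.05, against 16.4% higher and 0.697% lower of all features. The FLAG ratio over the Ctrl ratio called 0 of 46 by the same tools, with 2 at that level in edgeR, among them Pcgf5 (1.39, SE 0.62, adjusted p = 0.79). Of all features, 4.0% were higher and 1.27% lower at that level in edgeR. A difference between the pull-downs was therefore not shown for these genes.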

How the data were processed

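The files held, for each of 12 zygote libraries, estimated counts and TPM per RefSeq transcript, deposited by the authors from Salmon. The labels name Trimmomatic and the study's methods Cutadapt for trimming, and the kits given for the RNA-seq also differ between them. The RIP-seq used a stranded total RNA kit. Counts were summed by gene symbol and rounded, with repeats kept as features. Genes past filterByExpr (11313 in RNA-seq, 18925 in RIP-seq) were tested with edgeR 4.0.16 in R 4.3.3 by quasi-likelihood after TMM scaling, and p-values were Benjamini-Hochberg adjusted over all features, with a call at 0.05. The RNA-seq and the 8 RIP-seq libraries were fitted apart. Where levels between genes are given, TPM was used. Alternatives were DESeq2 1.42.0 and its size factors, limma 3.58.1 on log2(TPM + 1) and log2(TPM + 0.1), no abundance filter, transcript length corrections, single transcripts, a replicate block and leaving out each library. All 10 subunit genes are named, with other listed Polycomb genes past an adjusted p of 0.05, up to 8 per direction and comparison, and Lsm1; a listed gene that met this rule is not reported here. The members and lists were chosen with earlier results of these data known. Fits were also run on simulated counts, which held no deviating library such as FLAG IP replicate 1, and no result here rests on that run. Coordinates and sequences are from RefSeq on GRCm38.p6.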

Additional observations from a re-analysis of the deposited data

How the results depend on the processing

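Over the alternatives, 558 gene values kept their direction and side of the threshold, 47 lost a call, 47 gained one and 47 changed sign, and of the counts of calls 245 stayed within 1.5 times. The cause of each change was not tested except where fewer libraries or features were fitted. In Lsm1_KD against Ctrl, the core genes called lower, 1 by edgeR, were 2 with a length trend taken out and 0 on single transcripts. The other Polycomb genes called there, 3 higher and 4 lower, were 0 and 0 on single transcripts. Of all features, the length trend fit called 1064 of 11313 and single transcripts 0 of 14580. With 1 library left out, Eed ran from -1.02 to -0.73 and the median of all features from -0.05 to 0.06. In the FLAG IP over input, the core genes lower were 1 with DESeq2 size factors, 3 with DESeq2, 1 with the length trend taken out, 7 with limma at either pseudocount and 1 with no abundance filter. The other Polycomb genes lower were 2 with DESeq2 size factors, 9 with DESeq2, 3 with the length trend taken out, 18 with limma at a pseudocount of 1, 19 at 0.1, 3 with no filter, 0 on single transcripts and 0 with only the groups compared fitted. Those higher were 7 with DESeq2, 0 with limma at either pseudocount and 0 on single transcripts. With 1 library left out, core genes were 0 to 1 higher and 0 to 9 lower, and the others 0 to 14 higher and 0 to 28 lower. In the Ctrl IP, core genes lower were 2 with limma at 0.1 and 2 with only the groups compared fitted, and the others lower were 5 and 4. For the FLAG ratio over the Ctrl ratio, leaving out 1 library gave 0 to 9 core genes lower, and 0 to 4 others higher and 0 to 27 lower. For Lsm1_KD against Ctrl, Rnf2 was -0.0103 with DESeq2 size factors, -0.0107 with DESeq2, -0.0017 with a length offset, -0.28 with limma at either pseudocount, -0.0411 with no filter and -0.0238 on single transcripts. Pcgf1 was -0.0086 with DESeq2 size factors, -0.0088 with DESeq2, -0.67 with the length trend taken out, -0.27 with limma, -0.0395 with no filter and -0.0221 on single transcripts, and Pcgf6 was -0.17 with limma. Suz12 in the FLAG IP was 0.0041 with a length offset and 0.0359 on single transcripts, and in the Ctrl IP -0.0282 with the length trend taken out and -0.25 with limma. In the FLAG over Ctrl ratio, limma gave Eed 0.14 and Cbx2 0.13. With 1 library left out, the knockdown values of genes that changed sign ran from -0.28 to 0.20 (Ezh2), -0.14 to 0.13 (Rnf2), -0.49 to 0.0578 (Cbx2), -0.15 to 0.14 (Pcgf1) and -0.11 to 0.31 (Pcgf6). For the FLAG IP these were -1.74 to 0.73 (Suz12) and -2.26 to 0.36 (Bmi1), and for the Ctrl IP -0.19 to 0.0787 (Bmi1). For the FLAG over Ctrl ratio they were -1.94 to 0.0089 (Ezh1), -1.66 to 0.20 (Ezh2), -2.06 to 0.47 (Suz12), -2.19 to 0.0279 (Rnf2), -1.63 to 0.62 (Cbx2) and -2.22 to 0.45 (Bmi1). Same-numbered libraries deviated together weakly or in opposition (r = -0.11 for Lsm1_KD and Ctrl, 0.13 for FLAG IP and Input, 0.10 for Ctrl IP and Input, 0.08 for the inputs and 0.18 for the IPs, across genes). The numbers were not taken to pair the knockdown with Ctrl. An IP and its input shared a lysate by the study's methods, and no source says that the number marks it. With the replicate block, other Polycomb genes lower in the knockdown were 2, the FLAG IP had 1 core and 3 other genes lower, and the knockdown called 764 features against 1280. A crossed replicate block in the knockdown, chosen after seeing the data, called 2660 features, 2 core genes lower and 6 others higher. With 2 libraries a group, log2 fold changes of the core genes had SEs of 0.19 to 0.25 in the knockdown and, without Ring1, 0.47 to 0.82 in the FLAG IP, which limits the differences that could be detected.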

Other observations

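Ezhip, named here after its values were seen, encodes an inhibitor of the EZH enzymes and was among the more abundant Polycomb RNAs. Its level was 1725 and 1302 TPM in Lsm1_KD and 879 and 1359 TPM in Ctrl, so the groups overlapped. Ezh2 was at 1220 and 1388 TPM in Lsm1_KD and 1399 and 1879 TPM in Ctrl. In CPM Ezhip was higher in both knockdown libraries, with a log2 fold change of 0.69 (SE 0.25, edgeR adjusted p = 0.097) that missed the threshold. Both pull-downs held less of it than their inputs: the log2 ratio of IP over input was -3.38 and -0.97 for FLAG and -1.47 and -1.20 for Ctrl. Neither passed the test (edgeR adjusted p = 0.16 for FLAG and 0.52 for Ctrl). Of the 46 other Polycomb genes, 29 were below 0 in FLAG and 30 in Ctrl, against 42.3% and 44.0% of all features.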
